A study of Rattus norvegicus with 6 samples.

Results

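Protein kinase C, Akt and calcineurin carry signals from receptors of blood cells, and 10 of their genes were followed here in whole blood of male Sprague-Dawley rats, 8 weeks old. In 3 rats the middle cerebral artery was occluded for a time with a coated thread (MCAO), and 3 sham rats received an uncoated thread, so that both groups had been operated on. Blood was drawn from the heart 24 h after reperfusion, and each rat gave 1 array. The MCAO rats were those that the study kept from a larger operated group for the size of their infarct. The members were all probe sets that the array annotation assigns to Prkcb, Prkca, Prkcd, Prkcq, Akt1, Akt2, Ppp3ca, Ppp3cb or Ppp3r1, together with a probe set of Chp1 and 1 of Akt2 that were added by their identifiers. This gave 10 of the 14217 genes with a probe set, and 23 of the 31042 probe sets tested. Of these, 8 belonged to Prkcb, Akt2 and Chp1, and 15 belonged to the 7 other genes, called comparison genes below. Where a gene has several, its probe sets are numbered below by their spread over the rats, the widest first. Prkcb, Akt2 and Chp1 are here because they had been called lower in these same rats, so their group differences, and whether they were called, describe how they were chosen and are no test.

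Most protein kinase C enzymes are activated by diacylglycerol, which phospholipase C releases at a stimulated receptor, and the conventional forms also need calcium. Akt is recruited to the membrane by the lipid products of phosphoinositide 3-kinase and acts on growth and survival. Calcineurin is a phosphatase of a catalytic and a regulatory subunit that calcium and calmodulin switch on, and it lets the NFAT factors enter the nucleus of lymphocytes. Chp1 resembles the regulatory subunit of calcineurin, binds calcium through EF hands and is known as a partner of sodium-proton exchangers.

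The promoters of Akt2 and Chp1, as called genes, and of Ppp3ca and Ppp3cb, whose wider probe sets followed the called Prkcb probe set from rat to rat, are shown first. They are the RefSeq sequences on GRCr8, from 250 bases before to 50 bases after the gene start, on the strand of the gene. Capitals mark GGGCGG, the GC box, in either orientation.
Akt2 promoter (chr1:92021667-92021966, plus strand): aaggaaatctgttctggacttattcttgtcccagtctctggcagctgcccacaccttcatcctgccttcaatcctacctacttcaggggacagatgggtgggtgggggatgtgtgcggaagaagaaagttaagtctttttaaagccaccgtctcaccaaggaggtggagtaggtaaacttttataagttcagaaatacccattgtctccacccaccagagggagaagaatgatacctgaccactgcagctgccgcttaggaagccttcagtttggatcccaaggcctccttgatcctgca
Chp1 promoter (chr3:126989575-126989874, plus strand): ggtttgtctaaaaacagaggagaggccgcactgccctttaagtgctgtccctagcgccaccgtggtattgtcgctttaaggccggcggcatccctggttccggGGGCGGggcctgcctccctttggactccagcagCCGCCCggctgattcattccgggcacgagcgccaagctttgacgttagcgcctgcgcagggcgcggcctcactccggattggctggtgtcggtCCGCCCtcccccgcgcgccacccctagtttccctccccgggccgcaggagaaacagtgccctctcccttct
Ppp3ca promoter (chr2:227839357-227839656, plus strand): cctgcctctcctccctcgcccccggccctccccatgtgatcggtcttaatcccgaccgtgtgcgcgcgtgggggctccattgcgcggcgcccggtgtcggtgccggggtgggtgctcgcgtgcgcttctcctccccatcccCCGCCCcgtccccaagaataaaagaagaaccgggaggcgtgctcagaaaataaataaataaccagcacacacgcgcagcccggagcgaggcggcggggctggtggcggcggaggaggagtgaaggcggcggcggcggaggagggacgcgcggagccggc
Ppp3cb promoter (chr15:3809012-3809311, plus strand): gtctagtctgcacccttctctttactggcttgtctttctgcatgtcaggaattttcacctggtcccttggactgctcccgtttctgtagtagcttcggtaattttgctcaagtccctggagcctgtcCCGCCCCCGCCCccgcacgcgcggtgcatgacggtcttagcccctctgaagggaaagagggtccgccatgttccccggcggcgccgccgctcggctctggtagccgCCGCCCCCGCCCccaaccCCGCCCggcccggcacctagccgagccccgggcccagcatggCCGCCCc
The Akt2 sequence held no GC box and had a GC content of 49.7%, against a median of 52.3% over 27457 rat promoters. Chp1 held 3 GC boxes at 66.0% GC, Ppp3ca held 1 at 70.0% and Ppp3cb held 6 at 66.7%. A promoter was matched for 9 of the 10 genes, Prkcb being the exception. Of the 9, GGGCGG was present in 7, and it was present in 34.9% of all promoters. TATAAA was found in 2 (Akt2 and Prkcd; 14.3% of all promoters), CCAAT in 1 (Chp1; 37.7%) and TGGAAA, the core of many NFAT sites, in none (22.4%), on both strands in each case. In the 9 promoters, no matches of different motifs overlapped. These matches describe letters in this window only.

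The deposited values are log2 expression after DFW (Distribution Free Weighted) normalization, which contracts differences between arrays very unequally. Over all probe sets the median SD across the 6 arrays was 2.46e-06, whereas the members had a median of 2.24e-05. A difference in this section is therefore a log2 difference on the DFW scale and not a fold change. The range across rats was at least 0.0001 in 10 of the 23 member probe sets, against 10.7% of all probe sets, and it was smaller in the other 13. Calls were made with Rank Products at a false discovery rate (FDR) under 0.05. As a check of the tissue, Hbb, a globin of red cells, lay at 14.2 in every rat, near the top of the scale. With 6 arrays, precision is limited by their number.

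Prkcb, the conventional protein kinase C of B cell receptor signaling, was called lower in the MCAO group at 1 of its 3 probe sets. At the first probe set, MCAO rats 1, 2 and 3 read 6.1459, 6.1510 and 6.1526 in log2 expression, while sham rats 1, 2 and 3 read 6.1514, 6.1546 and 6.1543. MCAO rat 1 was by far the lowest, and the groups overlapped, since MCAO rat 3 lay above sham rat 1. With a mean of 6.150 ± 0.0035 for MCAO and 6.153 ± 0.0017 for sham (SD, n = 3), the log2 difference was -0.0036 (SE 0.0021). The other Prkcb probe sets ranged over less than 0.0001 and had log2 differences of -1.9e-06 (SE 9.7e-06) and -7.8e-08 (SE 7.0e-07).

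Akt2, the Akt kinase best known for insulin action on glucose uptake, had a lower mean in the MCAO group at 3 of its 4 probe sets and was called at 1. At the first, which was the called one, MCAO rats 1, 2 and 3 read 7.2707, 7.2692 and 7.2691, while sham rats 1, 2 and 3 read 7.2708, 7.2707 and 7.2715. The groups did not overlap, but MCAO rat 1 lay just below the sham rats. With a mean of 7.270 ± 0.00089 for MCAO and 7.271 ± 0.00039 for sham (SD, n = 3), the log2 difference was -0.0014 (SE 0.00053). The second read 6.37587, 6.37541 and 6.37537 against 6.37581, 6.37594 and 6.37589, a log2 difference of -0.00033 (SE 0.00015), and here MCAO rat 1 lay above sham rat 1. The third read 6.26513, 6.26493 and 6.26503 in the MCAO rats and 6.26519, 6.26514 and 6.26524 in the sham rats, again with no overlap and a log2 difference of -0.00016 (SE 5.9e-05). MCAO rats 2 and 3 were the lowest at all 3 probe sets. The second and the third were not called. The fourth probe set ranged over less than 0.0001 and had a log2 difference of 2.0e-06 (SE 5.3e-06).

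Chp1 had the largest difference of the members. MCAO rats 1, 2 and 3 read 6.9904, 6.9875 and 6.9848, while sham rats 1, 2 and 3 read 6.9891, 6.9956 and 7.0011. Sham rats 2 and 3 lay above all others, whereas sham rat 1 lay below MCAO rat 1. With a mean of 6.988 ± 0.0028 for MCAO and 6.995 ± 0.0060 for sham (SD, n = 3), the log2 difference was -0.0077 (SE 0.0036). The annotation gives this probe set to Chp1 and to Chp1l1, a like gene, so the signal of these genes cannot be told apart. A further probe set with the same assignment is outside the rule by which members were chosen. It read 7.8393, 7.8385 and 7.8382 in the MCAO rats and 7.8390, 7.8398 and 7.8426 in the sham rats, with sham rat 3 the highest and sham rat 1 again below MCAO rat 1, and was called lower as well (log2 difference -0.0018, SE 0.0011).

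**Figure D1:**
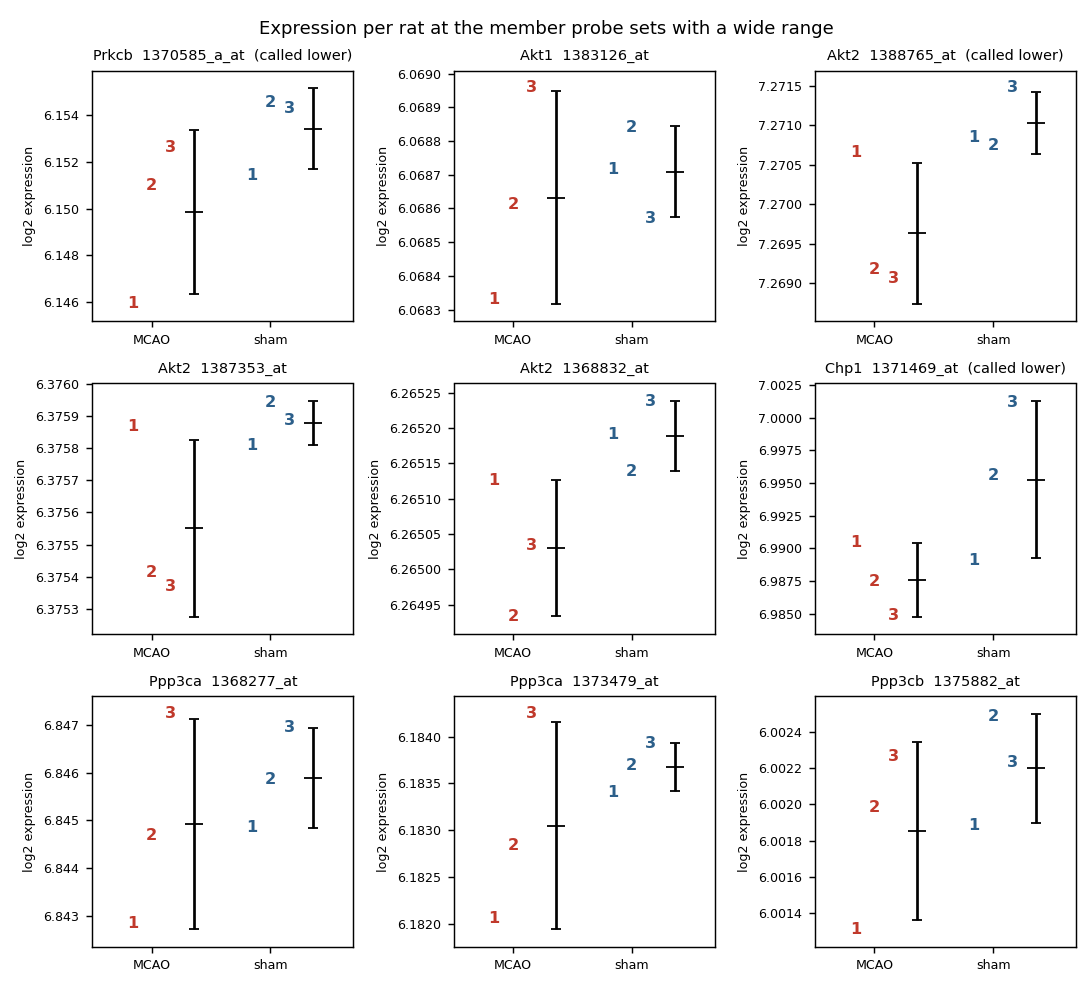
Log2 expression on the DFW scale (y axis) of 9 member probe sets in the MCAO and sham groups (x axis), with each rat drawn as its number and the group mean with its SD as a bar (n = 3). The 9 are those with a range of at least 0.0001 apart from Prkcq, and the y axes differ and do not start at 0. MCAO rat 1 is the lowest at Prkcb, Akt1, Ppp3ca and Ppp3cb and the highest of the MCAO rats at Akt2 and Chp1.

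The comparison genes were not called. However, Rank Products calls fell almost only on probe sets of wide spread, and most of their probe sets ranged over less than 0.0001. Among the comparison genes, only the first Ppp3ca probe set (SD rank 339) had a wider spread than the called Akt2 probe set (SD rank 528). For the narrow probe sets a call was hardly possible, so its absence does not show that the comparison genes differed from Prkcb, Akt2 and Chp1. Of their 15 probe sets, 9 had a lower and 6 a higher mean in the MCAO group, and the smallest FDR was 0.247. Their exact permutation p lay between 0.3 and 1.0 (two-sided, where the smallest possible is 0.1), and no limma p was under 0.251. Of the 23 members together, 3 were called lower, 1 each of Prkcb, Akt2 and Chp1, and none higher. Over all probe sets 0.612% were called lower and 0.135% higher, but the 3 were chosen by this contrast, so nothing follows from their count. All MCAO rats were below all sham rats at 2 members, both of Akt2, and at 3.6% of all probe sets, and above them at no member and 4.82% of all.

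Among the paralogues of Prkcb, the conventional Prkca had a log2 difference of 3.0e-07 (SE 4.0e-07) at its probe set, with a range under 0.0001. Prkcd, a form that needs no calcium, lay at 7.35 in every rat, with a log2 difference of 1.2e-05 (SE 2.2e-05) and its highest value in MCAO rat 3. Prkcq, the form of the T cell synapse, lay at 7.40 in every rat, with 2.9e-06 (SE 4.4e-05). All 3 had a slightly higher mean in the MCAO group, each difference being within its SE. Prkca, Prkcd and Prkcq thus gave no lower mean beside Prkcb, but their values ranged over far less than those of the called Prkcb probe set after DFW, and the difference between Prkcb and its paralogues was not tested, since Prkcb was chosen on this contrast.

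Akt1, the more widely used Akt kinase, varied at the first of its 3 probe sets. There the values were 6.0683, 6.0686 and 6.0690 in the MCAO rats and 6.0687, 6.0688 and 6.0686 in the sham rats. MCAO rats 1 and 3 lay at the ends of the scale with the sham rats between them, and the log2 difference was -7.7e-05 (SE 0.00019, exact permutation p = 0.8). This is the reverse of the order in which these rats stood for Akt2. The other Akt1 probe sets had log2 differences of 1.8e-06 (SE 4.3e-06) and -3.1e-07 (SE 2.7e-06).

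The catalytic subunits of calcineurin ranged over at least 0.0001 at 2 of 3 Ppp3ca and 1 of 3 Ppp3cb probe sets. Ppp3ca, the alpha form, read 6.8429, 6.8447 and 6.8472 in the MCAO rats and 6.8449, 6.8459 and 6.8469 in the sham rats at its first probe set, a log2 difference of -0.00096 (SE 0.0013, exact permutation p = 0.6). At the second it read 6.1821, 6.1828 and 6.1842 against 6.1834, 6.1837 and 6.1839, a log2 difference of -0.00063 (SE 0.00062, exact permutation p = 0.4). MCAO rat 1 was the lowest and MCAO rat 3 the highest of all rats at both probe sets. Ppp3cb, the beta form, read 6.0013, 6.0020 and 6.0023 against 6.0019, 6.0025 and 6.0022 at its first probe set, a log2 difference of -0.00035 (SE 0.00031, exact permutation p = 0.5). Here too MCAO rat 1 was the lowest, and MCAO rats 2 and 3 lay among the sham rats. The SD of the first Ppp3ca probe set ranked 339 of the 31042 probe sets, above that of the called Akt2 probe set, which ranked 528, whereas Chp1 ranked 101 and Prkcb 190. The third probe set of Ppp3ca and the others of Ppp3cb ranged over less than 0.0001. The same held for the 3 probe sets of Ppp3r1, the calcium-binding regulatory subunit, whose log2 differences were 1.4e-05 (SE 1.8e-05), -1.4e-06 (SE 2.7e-06) and -1.1e-06 (SE 1.9e-06).

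**Figure D2:**
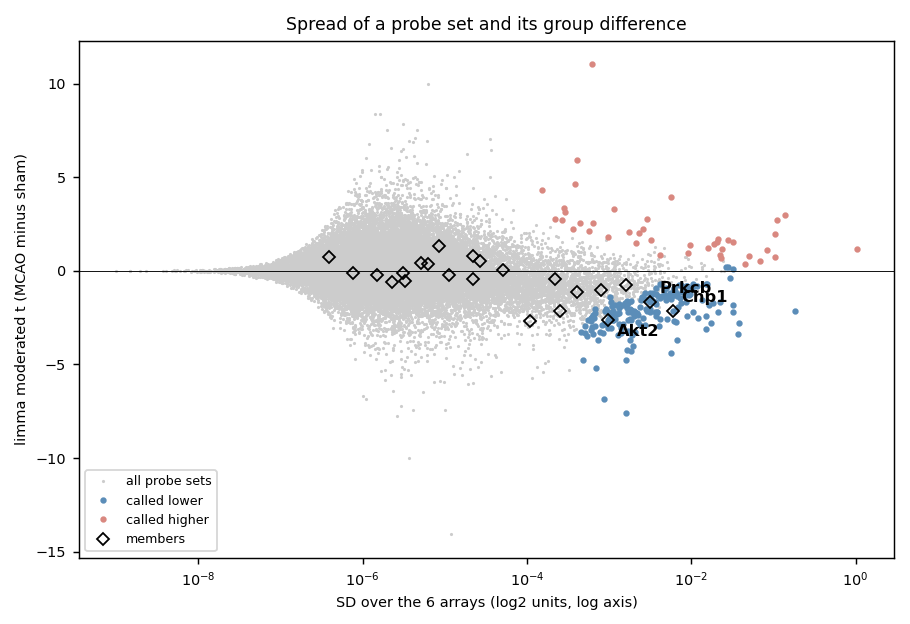
Moderated t of limma for MCAO minus sham (y axis) against the SD of each probe set over the 6 arrays (x axis, log scale, log2 units), where grey points are all 31042 probe sets, coloured points those called by Rank Products and open diamonds the 23 members. The called members, Prkcb, Akt2 and Chp1, lie among the probe sets with the widest spread, with SD ranks of 190, 528 and 101.

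Set on a common scale, in SDs from the mean of the 6 rats, the members fell into different orders of rats. The first Prkcb probe set stood at -1.81, -0.20 and 0.31 in MCAO rats 1 to 3 and at -0.07, 0.93 and 0.84 in sham rats 1 to 3. The first Ppp3cb probe set took a like course, with -1.74, -0.10 and 0.58 and then -0.35, 1.12 and 0.50. Both were lowest in MCAO rat 1, as was Ppp3ca at its first and second probe sets. Over the 6 rats, Pearson's r with the called Prkcb probe set was 0.968 for this Ppp3cb probe set and 0.873 and 0.884 for the first and second of Ppp3ca. The probe sets of smaller range differed, with -0.936 for the last of Ppp3ca and 0.468 and 0.521 for the others of Ppp3cb. The first Akt2 probe set stood at 0.34, -1.18 and -1.29 in the MCAO rats and at 0.53, 0.43 and 1.17 in the sham rats, and Chp1 at -0.17, -0.66 and -1.11 and then -0.39, 0.70 and 1.63. For Akt2 and Chp1, MCAO rats 2 and 3 were the low ones and MCAO rat 1 stood with or near the sham rats.

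A lowest value in MCAO rat 1, as seen for Prkcb, is common in these arrays. Of the 3310 probe sets with a range of at least 0.0001, MCAO rat 1 was the lowest rat in 56.8%, MCAO rat 2 in 17.8% and MCAO rat 3 in 7.58%. Of the 10 members with such a range, MCAO rat 1 was the lowest in 5, MCAO rat 2 in 2 and MCAO rat 3 in 3, the latter being the first and second Akt2 probe sets and Chp1. The lowest rat at the third Akt2 probe set and at Prkcq was MCAO rat 2. A lower mean in the MCAO group was found in 16 of all 23 members and in 46.6% of all probe sets. With a range of at least 0.0001 it was found in 9 of the 10 members, all but Prkcq, and in 76.3% of all probe sets, so a lower mean was frequent among wide probe sets of any gene. Of the 23 members, the direction turned in 7 with each array centred on its median and in 5 after quantile normalization, where 5 more, Prkcq among them, had no difference left. None of the 10 turned. The share of all probe sets with a lower mean moved as well, to 7.53% with centring and to 31.3% after quantile normalization.

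**Figure D3:**
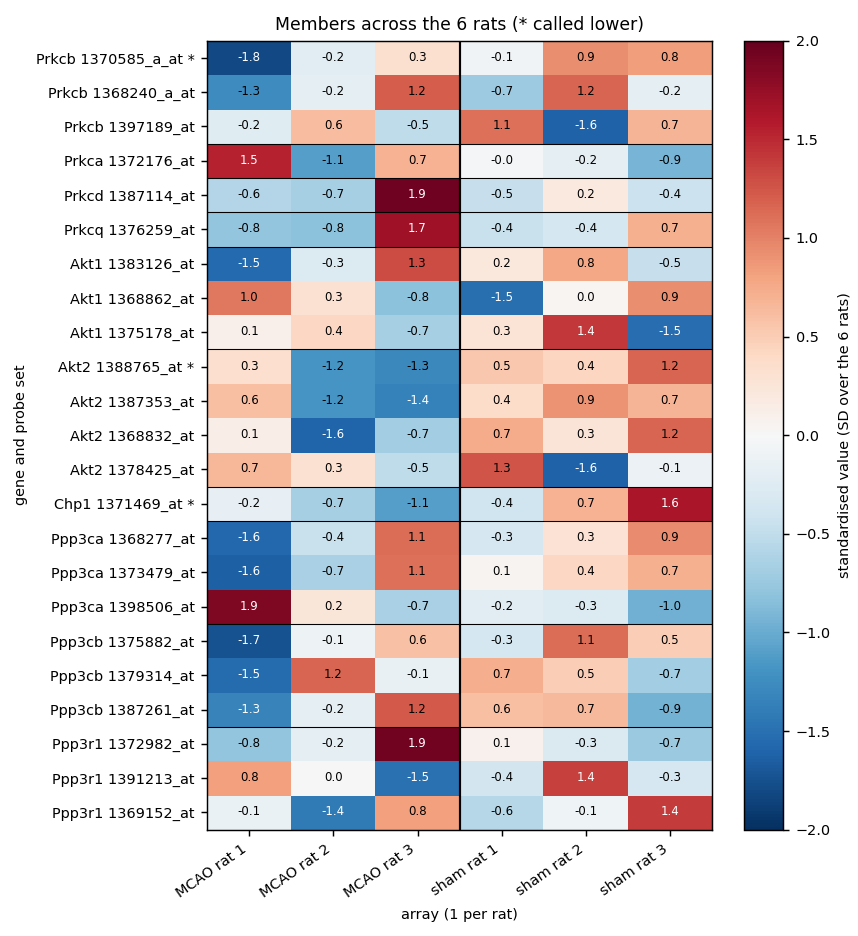
Standardised values (colour and number, in SDs from the mean over the 6 rats) of the 23 member probe sets (y axis, by gene; asterisks mark the 3 called lower) in each array (x axis). Prkcb, Ppp3ca and Ppp3cb are lowest in MCAO rat 1 at their wide probe sets, whereas 3 Akt2 probe sets and Chp1 are lowest in MCAO rats 2 and 3.

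The calls changed when single rats were omitted, as did those over all probe sets. Without sham rat 2, and likewise without sham rat 3, none of the members was called lower, while the 190 probe sets called lower in all fell to 11 each time. Without sham rat 1, Chp1 alone of the members was called, with 42 called in all. In contrast, without MCAO rat 3 the comparison gene Ppp3ca joined the called genes at its first (FDR 0.0187) and second (FDR 0.0289) probe sets, making 5 called members of 314 in all. Without MCAO rat 1 the second Akt2 probe set was called as well, making 4 of 249, and without MCAO rat 2 the same 3 were called of 165. The log2 difference of Prkcb ranged from -0.0050 to -0.0016 over these 6 omissions, that of the first Akt2 probe set from -0.0019 to -0.0011 and that of Chp1 from -0.011 to -0.0048, so each stayed lower in the MCAO group. By limma none of the members had an adjusted p under 0.05. The third Akt2 probe set had the smallest unadjusted p of the members, and was the only member among the 3.7% of all probe sets, 1150 in number, with an unadjusted p under 0.05. No probe set of any gene was called by limma (0.0%).

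The wider pathway was measured at 57 of 69 listed genes, each at its brightest probe set. None was called lower and none higher, against the 0.612% and 0.135% over all probe sets, and by limma none was called either, Foxo4 being the 1 gene with an unadjusted p under 0.05. Most of the 57 ranged over less than 0.0001, where Rank Products hardly makes calls, so the lack of calls says little about them. The median log2 difference was -7.1e-07, against 6.7e-08 over all probe sets. Of the 57, 36 had a lower mean in the MCAO group, against 46.6% of all probe sets. Foxo4 was the only one of them in which the MCAO rats all lay below the sham rats, against 3.6% of all. With each array centred on its median, 7.53% of all probe sets had a lower mean. Such counts, here and by list below, therefore depend on the scaling of the arrays.

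Among the 7 other protein kinase C and D genes, 5 had a lower mean. The largest differences were those of Prkd3, a protein kinase D (-4.6e-05, SE 5.9e-05), and Prkch (-5.9e-06, SE 4.2e-06). Of 14 genes of phospholipase C, diacylglycerol and protein kinase C effectors, 6 had a lower mean. Dgka, the kinase that removes diacylglycerol, read 6.7224, 6.7238 and 6.7235 in the MCAO rats and 6.7237, 6.7245 and 6.7241 in the sham rats, a log2 difference of -0.00086 (SE 0.00044, FDR 0.0854). MCAO rat 2 lay just above sham rat 1, so the groups overlapped, and Dgka was called lower without MCAO rat 2 (FDR 0.0357). Rasgrp2, an exchange factor for Rap of platelets, had 0.00035 (SE 0.00039) with an FDR for higher expression of 0.289, and was called higher without sham rat 3 (FDR 0.0217).

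Of 10 genes of phosphoinositide 3-kinase and Akt regulators, 7 had a lower mean, with Pik3cd, the leukocyte form of the kinase, at -0.00016 (SE 0.00013) and Pik3ca at -5.5e-05 (SE 8.9e-05). Of 9 Akt substrates, 7 had a lower mean. Foxo4, a forkhead factor that Akt phosphorylates, read 6.97959, 6.97946 and 6.97939 in the MCAO rats and 6.97968, 6.97960 and 6.97976 in the sham rats, a log2 difference of -0.00020 (SE 6.7e-05, FDR 0.145). MCAO rats 2 and 3 were the lowest, as for Akt2. Foxo3, a related factor, had -0.0011 (SE 0.00088, FDR 0.209) and its lowest value in sham rat 1.

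Of 7 other calcineurin subunits, homologues and regulators, 5 had a lower mean, and none ranged over 0.0001. Rcan3, an inhibitor of calcineurin, had -6.2e-06 (SE 6.2e-06) and Ppp3cc, the third catalytic subunit, -1.1e-06 (SE 3.6e-06). Of 10 genes of calmodulin, NFAT and calcium entry, 6 had a lower mean. Calm2, 1 of the calmodulin genes, had the widest values, with 6.9895, 7.0035 and 7.0141 in the MCAO rats and 7.0026, 7.0120 and 7.0076 in the sham rats, a log2 difference of -0.0051 (SE 0.0072, FDR 0.126). It was lowest in MCAO rat 1 and highest in MCAO rat 3, as Ppp3ca was, and was called lower without MCAO rat 3 (FDR 0.0057). Nfatc1, an NFAT factor, had -0.00012 (SE 0.00011).

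**Figure D4:**
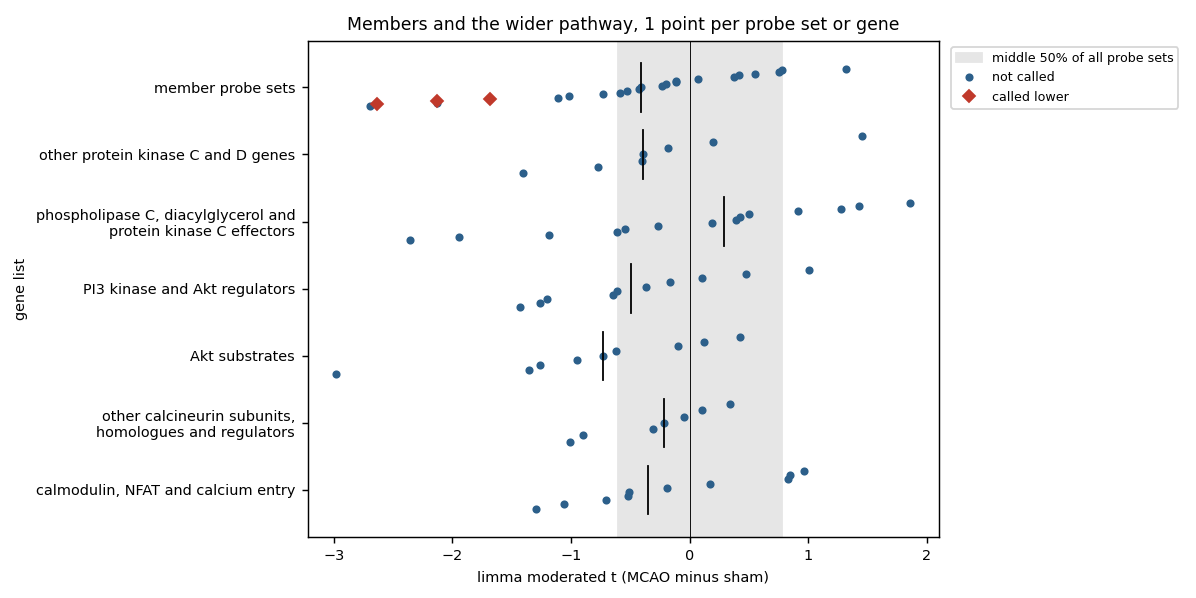
Moderated t of limma for MCAO minus sham (x axis) of the 23 member probe sets and of the 57 pathway genes by list (y axis), where red diamonds were called lower, vertical lines show the median of a list and the grey band holds the middle 50% of all probe sets. The 3 called points are members, and the point farthest to the left among the lists is Foxo4.

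Blood is a mixture of cells, and fewer cells of a type and less RNA per cell cannot be told apart in whole blood. Markers of B cells moved in the same direction as the called members. Of 5 measured markers, Ms4a1, Cr2 and Fcmr were called lower, all 5 had a lower mean, and in 4 the MCAO rats all lay below the sham rats. Over all probe sets, 0.612% were called lower, 0.135% were called higher and in 3.6% the MCAO rats all lay below. A lower mean was found in 46.6% of all probe sets, and in 76.3% of those with a range of at least 0.0001. Of the latter, the MCAO rats all lay below in 6.77%. The summed linear level of the B cell markers was 460.1 to 461.0 in the MCAO rats and 461.04 to 461.9 in the sham rats. Such a sum leans most on its brightest markers, and DFW contracts probe sets unequally, so it is no measure of cell numbers. Of 8 T cell markers, Cd3g and Tcf7 were called lower and 6 had a lower mean, and the summed level was 734.3 to 736.2 against 735.7 to 737.1. Of 5 monocyte markers none was called and 1 had a lower mean, with sums of 1642 to 1712 against 1664 to 1695. Of 6 neutrophil markers, Csf3r was called higher and S100a9 lower, with summed levels of 1001 to 1055 against 1019 to 1029. The mean of S100a9 was nevertheless higher in the MCAO group (log2 difference 0.0027, SE 0.028), with MCAO rat 1 the lowest and MCAO rat 3 the highest of all rats. None of the 5 platelet markers and none of the 5 erythroid markers was called, although all 5 erythroid markers had a lower mean. The platelet sums were 4425.2 to 4426.5 against 4424.9 to 4425.6, and the erythroid sums 30641.3 to 30641.7 against 30641.0 to 30643.4. No marker was at 0 in these values, which hold no detection call. The marker lists were chosen with earlier results of these data known, and the study itself had Cr2 and Cd3g among its called genes. These counts are therefore a description. The part of these cell markers in the values of Prkcb, Akt2 and Chp1 was not tested.

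From rat to rat, the B cell markers stood on average at -1.32, -0.15 and -0.52 SDs in MCAO rats 1 to 3 and at 0.44, 0.42 and 1.14 in sham rats 1 to 3. The T cell markers stood at -1.03, 0.30 and -0.26 and then -0.17, 0.71 and 0.44. In both, as for Prkcb, MCAO rat 1 was the lowest rat. The monocyte, neutrophil and platelet markers were highest in MCAO rat 3, at 1.52, 1.71 and 1.75, where the first Akt2 probe set and Chp1 were at their lowest. A highest value in MCAO rat 3 is common as well. It was found in 34.8% of all probe sets with a range of at least 0.0001, against 34.0% for sham rat 3. The erythroid markers stood at -0.33, -0.84 and 0.24 in MCAO rats 1 to 3 and at -0.88, 0.97 and 0.84 in sham rats 1 to 3. Sham rats 2 and 3 were thus the highest, as for Chp1, but MCAO rat 3 was not the lowest.

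**Figure D5:**
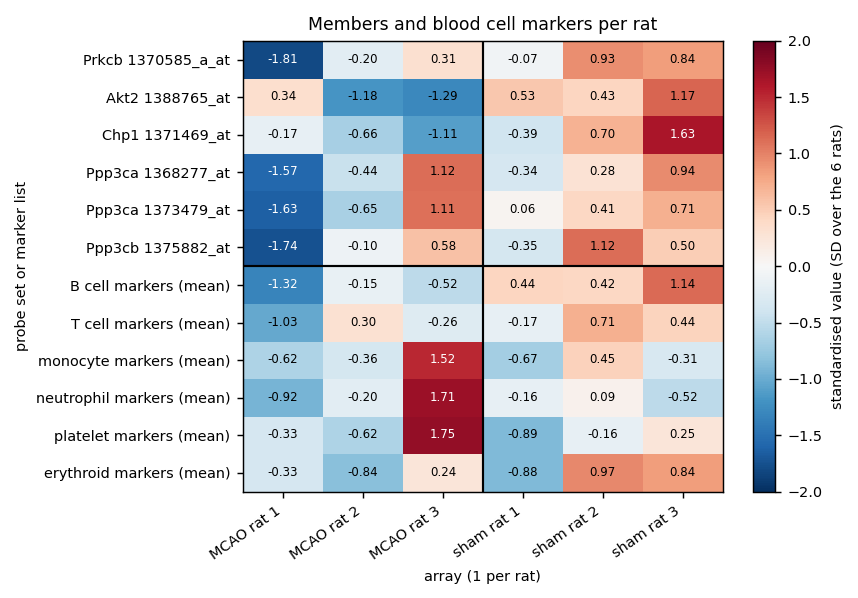
Standardised values (colour and number, in SDs from the mean over the 6 rats) of the 6 member probe sets with a range over 0.001 (upper rows) and mean standardised values of blood cell marker lists (lower rows), in each array (x axis). MCAO rat 1 is low for Prkcb, Ppp3ca, Ppp3cb and the B and T cell markers, and MCAO rat 3 is high for the monocyte, neutrophil and platelet markers.

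Genes most like the called members were sought among other probe sets with 1 symbol, as a description over 6 rats that share the contrast. For Prkcb, likeness (Pearson's r) was highest for Pnisr (0.996), Cmtm7 (0.996) and Cd8a (0.996), a chain of the CD8 receptor of T cells, and 391 probe sets exceeded 0.95. For Akt2 the leading genes were Pck2 (0.997), Prrx2 (0.984) and Bckdk (0.979), with 36 probe sets over 0.95. For Chp1 they were Eif2ak1 (0.994), the heme-regulated kinase of translation in red cell precursors, Ttc5 (0.989) and Thoc7 (0.988), with 62 over 0.95. Eif2ak1 and Thoc7 were themselves called lower (FDR 0.0357 and 0.0157), whereas Ttc5 and the genes most like Prkcb and Akt2 were not. Prrx2 and Ttc5 had log2 differences of only -1.9e-06 and -4.9e-07. With 6 rats a high r is easily reached among many probe sets, and the numbers over 0.95 were not set against chance.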

How the data were processed

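Whole-blood RNA of 3 MCAO and 3 sham rats, grouped by their titles, was hybridized to Affymetrix GeneChip rat genome arrays, 1 per rat. As deposited, the values are log2 expression that the authors normalized over the 6 arrays together with the DFW method, without a stated filter. The log base was inferred from their range, 4.93 to 14.4. No depth or background estimate comes with them. After 57 control probe sets were left out, Rank Products was computed in Python 3.11.15 with numpy 2.4.6 for 9 unpaired differences and 100 permutations, and log2 differences and SEs came from limma 3.58.1 in R 4.3.3 (Benjamini-Hochberg adjustment over 31042 probe sets). Both were also run on simulated data, with outcomes that are not reported here. Symbols came from the array annotation, updated by gene ID to RefSeq. The members and gene lists were chosen with earlier results of these data known. Every member was named, together with list genes called, the 2 genes of largest difference in each list and the 3 probe sets most like each called member. Other settings tried were limma (plain, with an intensity trend or with blocks of equal rat number), rank sums, a stricter FDR of 0.01, only probe sets above the median level, retained controls, quantile normalization, centring each array on its median, all probe sets of a gene, and omission of each rat.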

Additional observations from a re-analysis of the deposited data

How the results depend on the processing

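The 3 members called lower became 1 at an FDR under 0.01, by rank sums (Akt2) and among the brighter probe sets (Chp1), 2 after quantile normalization, where Akt2 lost its call (FDR 0.168), and 0 by limma, with an intensity trend or with a replicate block, and ranged from 0 to 5 without each rat. No member was called higher under any of these settings. All probe sets called lower numbered 190, or 51 at an FDR under 0.01, 0 by each of the 3 limma fits, 288 with the replicate block, 91 after quantile normalization, 84 when the dimmer probe sets were left out and 11 to 314 without each rat. Those called higher numbered 42, or 27, 0, 65, 26 and 30 in the same order, 18 by rank sums and 12 to 56 without each rat. By limma 1150 probe sets had an unadjusted p under 0.05, with an intensity trend 1193 and with the replicate block 1929. Pathway genes were called lower in 0 to 1 and higher in 0 to 1 cases without each rat, and with the replicate block 2 were lower (Dgka and Calm2) and 1 higher (Rasgrp2). Members with every MCAO rat below every sham rat numbered 2, or 0 after quantile normalization, 1 with arrays centred on the median and 2 to 7 without each rat, and those above numbered 0, or 1, 4 and 0 to 1. Groups separate more easily by chance when a rat is omitted, and the shares of all probe sets under these settings are not given. Nothing about the members follows from these counts. The cause of the changes between settings was not tested. Same-numbered rats are not paired by the labels, and their deviations correlated by 0.215, 0.0399 and 0.0631, so the block, under which Rank Products called the same 3 members, is no paired design. Under the other settings 164 log2 differences of members moved by less than 1 SD and 20 by more, and no called member turned direction.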
